A study of Mus musculus with 28 samples.

Results

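The RNA of 9 oocyte genes was followed in the ovary and in the male germ line of mice that carry or lack Csmd1. They are Zp1, Zp2, Zp3, Gdf9, Bmp15, Nobox, Figla, Nlrp5 and Oosp1, all 9 of which were found among the 37122 genes of the expression table. The genes were chosen by name, and the value of a gene is the sum of its transcripts in RPKM, the read count scaled to transcript length and to the mapped reads of the library. RNA-seq was available from 28 libraries of 13 mice, namely the ovary of wildtype mouse 86, the testis of 2 wildtype and 5 knockout males, and 20 sorted germ cell libraries (9 from 3 wildtype and 11 from 5 knockout males). Knockout mice lack exon 1 of Csmd1 throughout the body, where a lacZ and neomycin cassette replaces it, and no other allele or treatment distinguishes the groups. The labels give the strain C57BL/6 for every library and no age, whereas the paper describes a colony on a mixed 129SvEvBrd:C57BL/6 background, sexually immature as well as mature whole testes, and sorting of mature males. Which testis is of which age is not given by the labels. Germ cells were sorted by Hoechst fluorescence into gates named spermatogonia (4 libraries), primary spermatocytes (6), secondary spermatocytes (5) and spermatids (5), with 1 testis of a mouse used whole and the other sorted. A single ovary allows no test against the testis, so its values are given beside the range over the 27 other libraries.

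Oocyte factors fall into a few working groups. ZP1, ZP2 and ZP3 are the glycoproteins of the zona pellucida, the coat that sperm must bind and cross. GDF9 and BMP15 are TGF-beta family ligands that the oocyte secretes to the granulosa cells around it, and NOBOX and FIGLA are transcription factors of the early oocyte, of which FIGLA is known to switch on the zona genes through E-boxes. NLRP5 (also MATER) is a protein of the subcortical maternal complex that the embryo needs after fertilization, and OOSP1 is a secreted oocyte protein. Transcripts of some of these genes are also known from germ cells of the testis.

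Sequencing depth, estimated from the size of 1 read, was 23.8 to 61.7 M mapped reads in 27 libraries (median 45.4 M) and could not be estimated for the primary spermatocytes of knockout mouse 613. The full-length Csmd1 transcript stood at 0.025 to 0.264 RPKM in wildtype and 0.028 to 0.629 RPKM in knockout testes. In sorted cells it stood at 0.008 to 0.517 RPKM in wildtype and 0 to 2 RPKM in knockout libraries. These values cover the whole transcript and do not check the loss of exon 1. By exon, the paper reports reduced reads over most of the gene in knockout testes and raised reads over its last exons. In the ovary the female markers were present (Foxl2 5.42, Cyp19a1 45.7, Inha 1457 RPKM) and the 6 spermatid markers summed to 0.632 RPKM. Late spermatid RNA was unevenly spread in the testis: Prm1, the protamine of condensing spermatids, stood at 603 to 1922 RPKM in the testes of mice 178, 214 and 273 and at 0.439 to 1.16 RPKM in those of mice 648, 269, 286 and 308. It stood at 930 to 2579 RPKM in the spermatid gates of mice 178, 351 and 544, and at 0.579 and 2.14 RPKM in those of mice 648 and 286. Against its label, the spermatogonia library of mouse 544 held Prm1 at 1402 RPKM, where the other 3 held 0.094 to 92.9 RPKM. In bulk libraries such as these, fewer cells of a type and less RNA per cell cannot be told apart.

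On GRCm38 the 9 genes lie on 6 chromosomes, namely Zp1 (chr19:10914289-10920632) and Oosp1 (chr19:11667460-11691150), Zp2 (chr7:120132340-120145290) and Nlrp5 (chr7:23385901-23441922), Nobox (chr6:43303674-43309554) and Figla (chr6:86017191-86020996), Zp3 (chr5:135980099-135988624), Gdf9 (chr11:53433299-53437904) and Bmp15 (chrX:6314107-6320721). In the ovary, 8 of the 9 genes stood above 6 RPKM and Figla at 0.399 RPKM. The summed values were 43.3 RPKM for Zp3, 34.0 for Nlrp5, 33.0 for Gdf9, 24.1 for Oosp1, 23.2 for Zp2, 19.8 for Zp1, 7.33 for Bmp15 and 6.67 for Nobox. A sum counts a read again for every transcript it was assigned to, and each of the 5 Nlrp5 transcripts held 6.61 to 6.88 RPKM in the ovary, so levels of different genes were compared on the longest transcript alone. On that scale Zp2 (23.2 RPKM, 2716 reads) and Zp3 (20.1 RPKM, 1403 reads) led. Gdf9 (12.8), Oosp1 (9.82), Zp1 (9.12), Bmp15 (7.33), Nlrp5 (6.87), Nobox (3.37) and Figla (0.399 RPKM, 16 reads) followed. No error can be put on this order, since there is 1 ovary.

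Zp1, Zp2, Zp3, Bmp15 and Oosp1, 5 of the 9, stood at least 10-fold above every testis and sorted library (ovary + 0.1 over the highest other library + 0.1 RPKM). Of all 35078 genes with a value, 838 did so (2.39%). Zp2 led with 79.1-fold over its highest other library, followed by Oosp1 with 66.8-fold, Zp1 with 38.9-fold, Bmp15 with 36.1-fold and Zp3 with 17.4-fold. Nlrp5, at 6.12-fold, and Nobox, at 3.46-fold, were higher in the ovary than in each of the 27 other libraries without reaching 10-fold. Gdf9 and Figla were not. Gdf9 was higher than in the ovary in 1 testis and 3 sorted libraries, all 4 of them from mouse 648, and Figla in 2 testes and 5 sorted libraries. The 6 libraries quantified together with the ovary are sorted cells of knockout mice 544 and 550, with no whole testis and no wildtype male. Against these alone, 6 of the 9 genes reached 10-fold, beside 7.09% of all genes. Gdf9 and Figla were then also highest in the ovary, by 0.24 and 0.33 on the log2 scale.

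**Figure D1:**
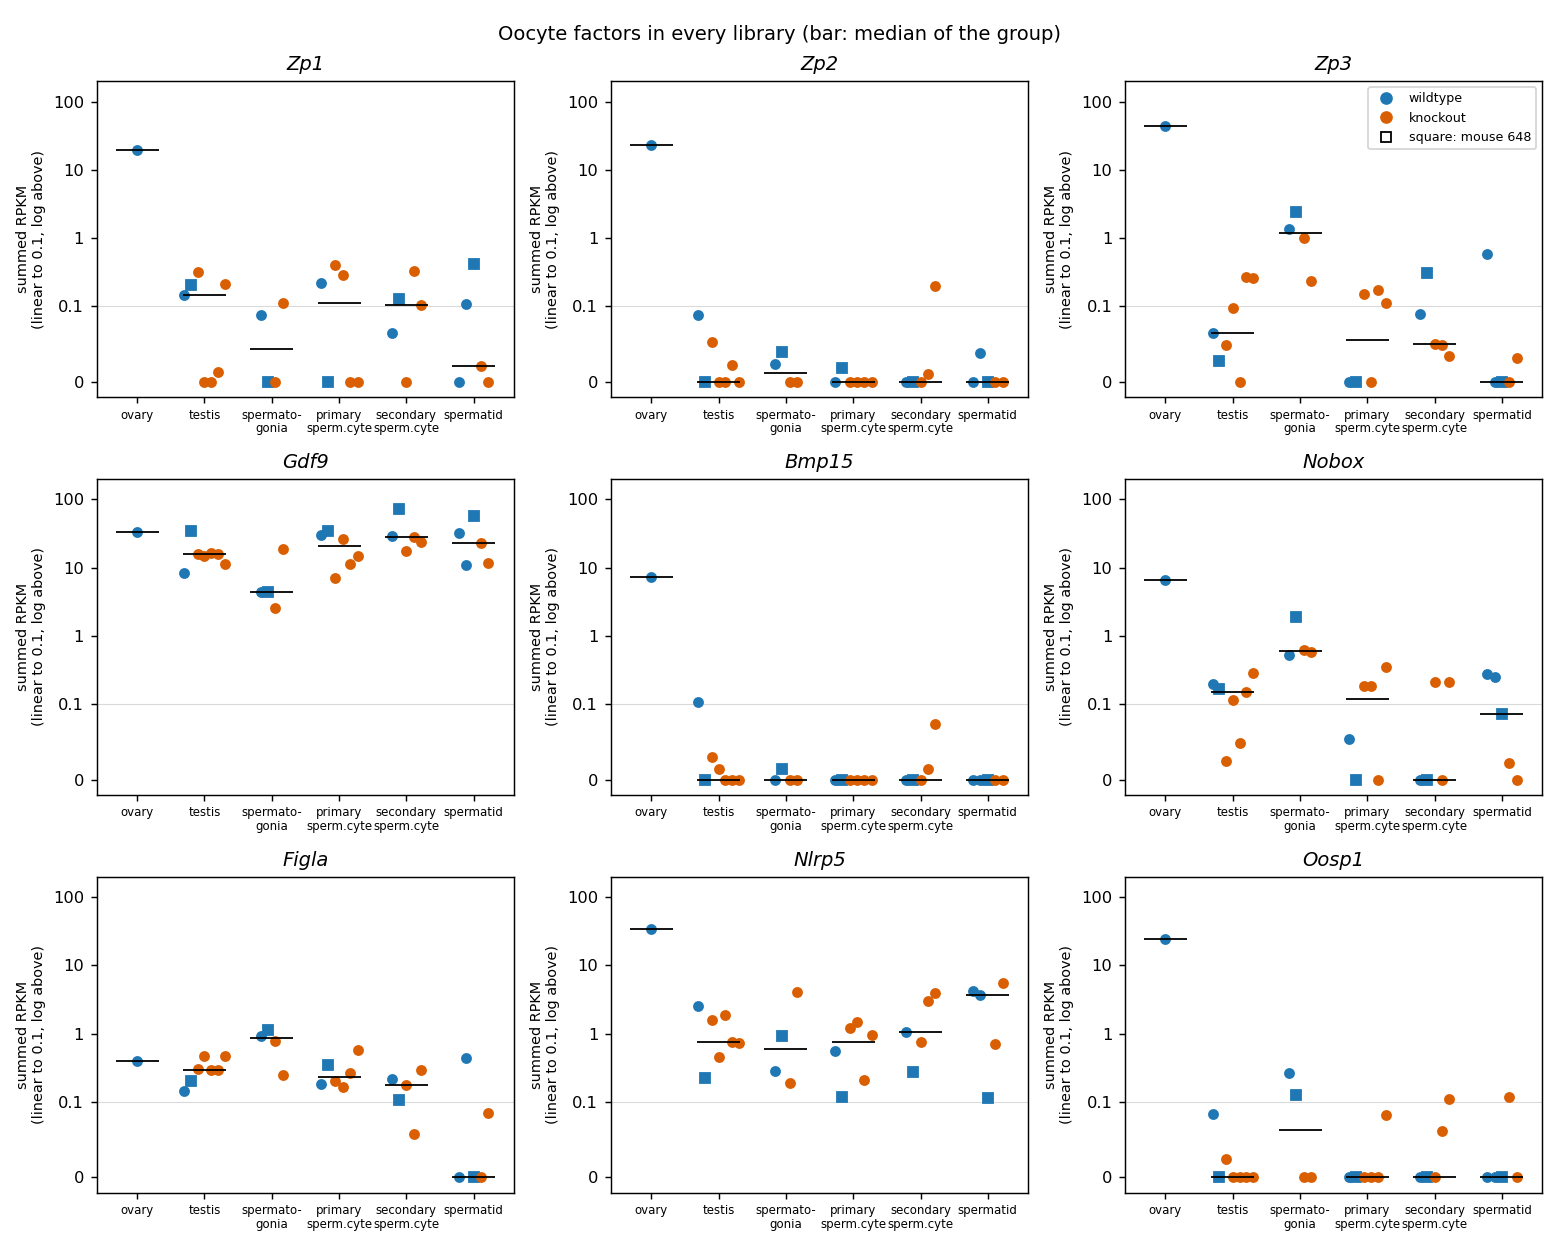
Summed RPKM of each oocyte factor (y axis, linear to 0.1 and logarithmic above) in the ovary, 7 testes and 20 sorted libraries (x axis), 1 point per library, with wildtype in blue, knockout in orange, mouse 648 as squares and a bar at the median of the group. Zp1, Zp2, Zp3, Bmp15 and Oosp1 stand alone in the ovary at 7.33 to 43.3 RPKM, Gdf9 is spread over all groups, and Zp3, Nobox and Figla have their highest sorted values in spermatogonia.

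A gene was called read in a library from 10 reads on its best covered transcript, and 0 reads allow up to 3 reads. Of the 9 genes, 8 were read in at least 1 of the 19 sorted libraries with a known depth, beside 69.3% of all 35078 genes with a value. At 30 reads it was 5 of 9, beside 56.7%. Gdf9 was read in 19 of the 19 libraries and Nlrp5 in 16. Nobox and Figla were read in 6 libraries each, Zp3 in 4, Zp1 in 2, and Zp2 and Bmp15 in 1 each. Oosp1 was read in none, with at most 6 reads in a sorted library.

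The zona genes Zp1 and Zp2 were near the limit of detection in the testis and sorted germ cells. Zp2, which carries the site that sperm recognize, was at 0 in 14 of 20 sorted libraries and 4 of 7 testes, and reached 0.194 RPKM (19 reads) in the secondary spermatocytes of knockout mouse 550. The limit set by 0 reads for this gene was 0.0219 to 0.0567 RPKM over the sorted libraries. Zp1, which crosslinks the zona filaments, was at 0 in 8 sorted libraries, and its highest values were 0.410 RPKM (17 reads) in spermatids of mouse 648 and 0.396 RPKM (5 reads) in primary spermatocytes of mouse 544. Neither gene was read in more than 2 sorted libraries. The values of Zp1 did not order the stages (limma F test over the 4 stages, adjusted p = 0.87).

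Bmp15 and Oosp1 behaved like Zp2. Bmp15, the X-linked partner of Gdf9, was at 0 in 17 of 20 sorted libraries and 4 of 7 testes. It was read in the testis of wildtype mouse 178 (0.106 RPKM, 15 reads) and in the secondary spermatocytes of mouse 550 (0.073 RPKM, 10 reads), the library with the highest Zp2 value. That library was quantified together with the ovary, and it was the only sorted library in which Zp2 or Bmp15 was read. Oosp1 was at 0 in 14 sorted libraries and 5 testes, with its highest sorted value in the spermatogonia of mouse 178 (0.263 RPKM, 6 reads). Zp2, Bmp15 and Oosp1 had a mean under 0.1 RPKM in both fits below and were not tested there.

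Zp3, Nobox and Figla had their highest sorted values in spermatogonia. Zp3, which encodes a zona filament protein, stood at 1.33 and 2.39 RPKM in the spermatogonia of wildtype mice 178 and 648 and at 1.01 and 0.235 RPKM in those of knockout mice 286 and 544. Over the later gates it ran from 0 to 0.586 RPKM, the highest in spermatids of mouse 178, and the spermatogonia of mouse 544 lay within that range while the other 3 lay above it. Whole testes held 0 to 0.266 RPKM.

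Nobox, a homeobox factor, stood at 0.523 and 1.85 RPKM in wildtype and 0.620 and 0.576 RPKM in knockout spermatogonia. Its values ran from 0 to 0.351 RPKM in the later gates and from 0.024 to 0.280 RPKM in whole testes, below the 4 spermatogonia libraries. The share of all genes with such a separation was not computed. It was read in 4 of 4 spermatogonia libraries, with 17 to 63 reads.

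Figla, a basic helix-loop-helix factor, stood at 0.926 and 1.13 RPKM in wildtype and 0.789 and 0.247 RPKM in knockout spermatogonia. The ovary, at 0.399 RPKM, lay below 3 of these 4 libraries. Later gates ran from 0 to 0.574 RPKM, with 0 in 3 of 5 spermatid libraries, where 0 reads allow up to 0.0911 RPKM in the shallowest of the 3. Whole testes held 0.142 to 0.467 RPKM.

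These stage differences were tested with limma on log2(RPKM + 0.1) over the 20 sorted libraries, with p-values adjusted over 22715 genes. Zp3, Nobox, Figla and Gdf9, 4 of the 6 oocyte factors tested, differed over the 4 stages (F test, adjusted p = 0.00273, 0.00357, 0.0176 and 0.0146), beside 45.2% of all genes, and the same 4 did so with mouse as a block, beside 62.2%. Of the 6, 3 were lower in spermatids than in spermatogonia and 1 was higher, beside 26.3% of all genes lower and 13.7% higher. The median gene was lower by 0.29 on the log2 scale in spermatids. Under quantile normalization 19.8% of all genes were higher and 20.8% lower, and the 4 oocyte factors kept their direction and their calls. Zp3 fell by 2.86 (SE 0.59, adjusted p = 0.00166), Figla by 2.35 (SE 0.57, adjusted p = 0.00436) and Nobox by 2.29 (SE 0.54, adjusted p = 0.0035) on the log2 scale. Zp3 (-2.94, adjusted p = 0.00198) and Nobox (-2.33, adjusted p = 0.00415) were already lower in primary spermatocytes, 2 of 6 beside 19.1% of all genes, and Gdf9 was higher, 1 of 6 beside 7.54%. For Figla that step was -1.12 (SE 0.56, adjusted p = 0.155). In secondary spermatocytes Zp3 (-2.42, adjusted p = 0.0113) and Nobox (-2.59, adjusted p = 0.00523) were lower, 2 of 6 beside 11.4%, and Gdf9 was higher, 1 of 6 beside 8.3%. Figla stood at -1.63 there (adjusted p = 0.0543), which with mouse as a block became -1.65 (adjusted p = 0.0145) and under quantile normalization -1.74 (adjusted p = 0.0401). Between the 3 later gates 0 of 6 passed in either direction. The shares of all genes were 2.81% higher and 0.15% lower in secondary against primary spermatocytes, 13.4% and 12.7% in spermatids against primary and 0% and 0.128% in spermatids against secondary spermatocytes. The nearest to passing was Figla in spermatids against primary spermatocytes (-1.23, adjusted p = 0.1, and -1.31 with adjusted p = 0.0381 with mouse as a block, and -1.58 with adjusted p = 0.0395 under quantile normalization). Without the libraries of mouse 648, which held the highest value of each in spermatogonia, Zp3 stayed past the threshold (-2.43, adjusted p = 0.0348), while Nobox (-1.72, adjusted p = 0.0712) and Figla (-2.08, adjusted p = 0.0555) did not, when 17.3% of all genes were lower and 5.26% higher.

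The spermatogonia gate also held more RNA of other testis cells than the spermatid gate. The summed level of 6 Sertoli cell markers was 368 to 658 RPKM in spermatogonia, 31.7 to 160 in primary spermatocytes, 97.2 to 736 in secondary spermatocytes and 28.4 to 314 in spermatids. One gene of that list, Rhox5, was listed at 0 in all 7 whole testes as well as in 19 of 20 sorted libraries, so its 0 says nothing about Sertoli cells. Of the Sertoli list, 3 of 5 tested genes were lower in spermatids, beside 26.3% of all genes. The 3 macrophage markers summed to 5.37 to 40.8 RPKM in spermatogonia and 1.52 to 4.57 in spermatids, and 2 of 3 were lower. The 4 Leydig markers summed to 11.7 to 314 and 1.85 to 10.5 RPKM, and 3 of 4 were lower. Without mouse 648 the counts were 2 of 5 Sertoli, 1 of 3 macrophage and 0 of 4 Leydig genes, beside 17.3% of all genes. The part of these cells in the Zp3, Nobox and Figla values was not tested. The spermatogonia markers themselves summed to 289 to 648 RPKM in spermatogonia and 12.7 to 24.8 in spermatids. Markers of primary spermatocytes summed to 352 to 1956 RPKM (median 972) in spermatogonia and 412 to 2362 (median 928) in primary spermatocytes. That list did not set the 2 gates apart. Of 6 spermatid markers, 2 were higher in spermatids than in spermatogonia, beside 13.7% of all genes, and Prm1, Prm2, Tnp1 and Tnp2 did not pass. The stage tests thus compare gates as labelled, which are not pure stages.

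**Figure D2:**
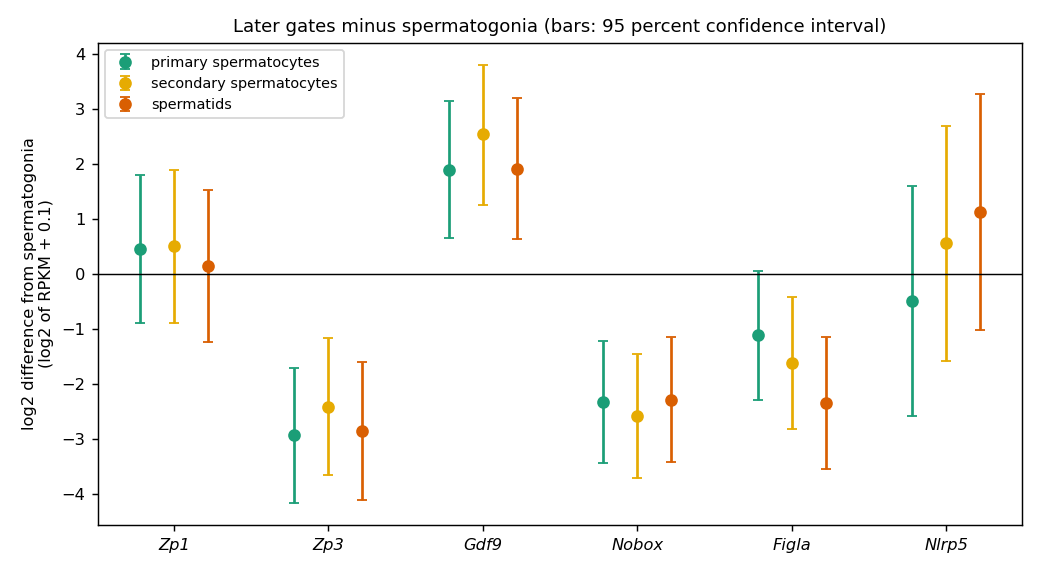
Difference of primary spermatocytes, secondary spermatocytes and spermatids from spermatogonia (y axis, log2 of RPKM + 0.1) for the 6 tested oocyte factors (x axis), as limma estimates from 20 libraries with 95% confidence intervals. Zp3 and Nobox lie below 0 at all 3 later gates, Gdf9 lies above 0 at all 3, and the intervals of Zp1 and Nlrp5 span 0.

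The sequence just upstream of the genes was read because FIGLA binds E-boxes and NOBOX a homeobox motif, and both have RNA in the gate where Zp3 is highest. RefSeq start sites (GRCm38.p6) were at hand for 6 of the 9 genes, with Zp1, Zp2 and Gdf9 not matched. The window runs from 250 bases before the start and ends 10 bases before it, 240 bases in all, written 5′ to 3′ on the strand of the gene, with matches on either strand in capitals. The E-box CANNTG is its own reverse complement and was found in 65% of 32851 windows of this length. The NOBOX motif, spelled TAATTG and also with A as its last letter, was found in 11.1%, and the pair does not overlap with the E-box.
Zp3, chr5:135979855-135980094, plus strand: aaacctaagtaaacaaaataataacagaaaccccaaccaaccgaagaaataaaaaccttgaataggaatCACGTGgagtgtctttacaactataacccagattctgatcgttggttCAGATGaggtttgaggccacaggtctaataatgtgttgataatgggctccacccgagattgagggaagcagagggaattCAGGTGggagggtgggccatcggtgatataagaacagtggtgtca
Nobox, chr6:43309565-43309804, minus strand: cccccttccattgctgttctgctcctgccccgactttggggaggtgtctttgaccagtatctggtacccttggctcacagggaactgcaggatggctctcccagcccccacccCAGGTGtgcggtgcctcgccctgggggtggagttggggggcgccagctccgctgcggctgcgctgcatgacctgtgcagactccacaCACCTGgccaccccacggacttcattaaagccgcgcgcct
Figla, chr6:86016941-86017180, plus strand: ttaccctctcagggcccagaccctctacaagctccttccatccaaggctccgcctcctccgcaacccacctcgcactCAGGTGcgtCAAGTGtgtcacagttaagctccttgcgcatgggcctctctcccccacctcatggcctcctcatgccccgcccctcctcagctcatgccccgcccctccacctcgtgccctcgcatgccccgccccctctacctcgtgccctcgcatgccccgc
Bmp15, chrX:6320735-6320974, minus strand: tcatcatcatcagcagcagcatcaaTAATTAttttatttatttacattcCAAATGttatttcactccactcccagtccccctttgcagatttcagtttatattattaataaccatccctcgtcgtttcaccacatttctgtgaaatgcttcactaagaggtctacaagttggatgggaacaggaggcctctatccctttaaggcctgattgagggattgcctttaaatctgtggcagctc
The Zp3 window held 3 E-box matches, at 181, 134 and 55 bases before the start, where the first spells CACGTG, found in 5.69% of windows. Nobox and Figla held 2 matches each, and 3 of these 4 spell CAGGTG on one strand or the other. The Zp3 match at 55 bases and the Oosp1 matches at 249 and 59 bases before the start spell it too. The share of windows with CAGGTG was not computed. Bmp15, at 0 in most testis libraries, held 1 E-box match and 1 NOBOX motif. Oosp1 held 5 and 0, the upstream of the 2 Nlrp5 starts 2 and 1, and the other 2 and 0. A match is a string of letters and does not show binding.

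Gdf9 was the oocyte factor most widely read in the testis. In whole testes it stood at 8.25 RPKM (mouse 178) and 34.8 RPKM (mouse 648) in wildtypes and at 11.3, 15.0, 15.7, 15.9 and 16.3 RPKM in knockouts. Spermatogonia held 4.33 and 4.39 RPKM in wildtypes and 2.51 and 19.0 RPKM in knockouts, the highest being the library of mouse 544 with its Prm1. Primary spermatocytes held 7.02 to 34.0 RPKM (median 20.6), secondary spermatocytes 17.4, 23.9, 28, 28.7 and 73.3 RPKM, and spermatids 10.8, 11.7, 23.0, 31.6 and 56.2 RPKM. The highest value of each of the 3 later gates and of the testes came from mouse 648, and these 4 libraries were the ones above the ovary at 33.0 RPKM.

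Gdf9 rose after the spermatogonia. It was higher by 1.88 on the log2 scale in primary spermatocytes (SE 0.59, adjusted p = 0.0258), by 2.53 in secondary spermatocytes (SE 0.60, adjusted p = 0.01) and by 1.91 in spermatids (SE 0.60, adjusted p = 0.0192, limma over 20 libraries). The 3 later gates were not told apart, and the largest step among them, secondary over primary spermatocytes, was 0.64 (95% CI -0.54 to 1.83). The rise to spermatids depended on few libraries. With the spermatogonia of mouse 648 left out it was 1.91 (adjusted p = 0.0522). It was 1.65 without mouse 648 (adjusted p = 0.116), 1.19 without the spermatogonia of mouse 286 alone (adjusted p = 0.147) and 1.67 without the spermatids of mouse 286 (adjusted p = 0.0683), and 2.63 without the spermatogonia of mouse 544 (adjusted p = 0.00167).

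Of the 3 Gdf9 transcripts in the table, the full-length one encodes the ligand, with 2 exons over 1793 bases at chr11:53433299-53437904 on the plus strand (GRCm38). The other 2 are short transcripts without an annotated protein that start upstream of it, one of 3 exons and 429 bases (chr11:53431023-53436902) and one of 2 exons and 382 bases (chr11:53432842-53433780). The RPKM of the 3-exon transcript relative to the full-length one was lower in the 1 ovary than in the other libraries. The spans of the transcripts overlap, so a read can be counted for more than 1 of them, and how shared reads were treated is not given. The ratio of RPKM therefore need not be the ratio of the transcripts themselves. In the ovary the RPKM of the 3-exon transcript was 0.994 times that of the full-length one (289 and 1215 reads), and in the 27 testis and sorted libraries it was 1.34 to 2.71 times (median 1.81), so the ovary was the lowest of 28. In the 6 libraries quantified together with the ovary the ratio was 1.60 to 1.96. The 5 libraries of mouse 648 lay at 2.51 to 2.60, whereas those of mouse 286 ran from 1.46 in the testis to 2.71 in spermatogonia. The 2-exon transcript showed no such gap, with a ratio of 0.576 in the ovary inside the 0.295 to 1.63 of the other libraries.

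On the full-length transcript alone, the ovary held 12.8 RPKM, the 7 testes 2.50 to 6.71 RPKM and the sorted libraries 0.561 to 14.4 RPKM. Counted this way the ovary lay above every testis and below 1 sorted library, the secondary spermatocytes of mouse 648. By the sum 1 testis and 3 sorted libraries lay above the ovary. The full-length transcript made up 38.9% of the sum in the ovary and 19.3 to 32.7% elsewhere.

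**Figure D3:**
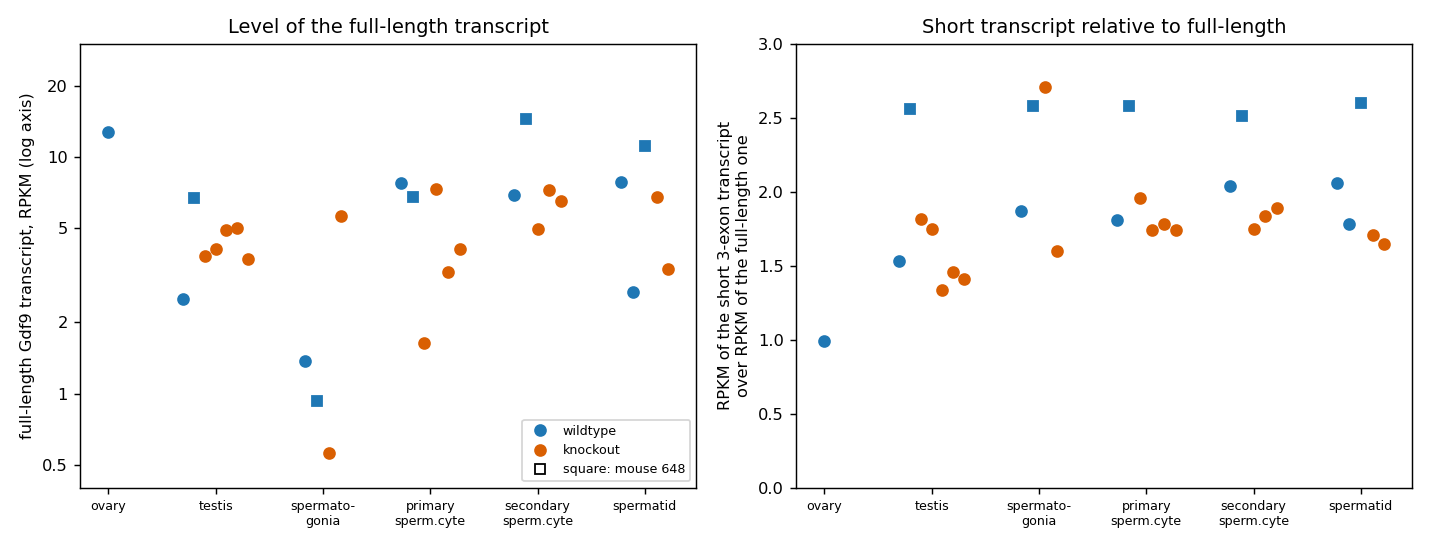
Left, RPKM of the full-length Gdf9 transcript (log axis) and right, RPKM of the short 3-exon transcript over that of the full-length one (linear axis), by library, with wildtype in blue, knockout in orange and mouse 648 as squares. The ovary holds 12.8 RPKM and a ratio of 0.994, below the 1.34 to 2.71 of all other libraries.

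Nlrp5 was read in 16 of 19 sorted libraries and 6 of 7 testes. The sum of 34.0 RPKM over 5 transcripts in the ovary corresponds to 6.87 RPKM on the longest one. In spermatids it stood at 4.27, 3.70 and 0.113 RPKM in wildtype mice 178, 351 and 648 and at 0.693 and 5.47 RPKM in knockout mice 286 and 544. Secondary spermatocytes held 0.277 and 1.05 RPKM in wildtypes and 0.762, 3.04 and 3.95 RPKM in knockouts. Primary spermatocytes held 0.118 to 1.49 RPKM, and spermatogonia 0.191, 0.282, 0.904 and 4.06 RPKM, the last from mouse 544. Values within the spermatogonia, secondary spermatocyte and spermatid gates were spread widely, and no stage difference passed the test (F test, adjusted p = 0.473). The step from spermatogonia to spermatids was 1.12 (95% CI -1.03 to 3.26).

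The high libraries were those with late spermatid RNA. In the 3 whole testes with Prm1 at 603 to 1922 RPKM, Nlrp5 stood at 1.57, 1.85 and 2.55 RPKM. In the 4 testes with Prm1 at 0.439 to 1.16 RPKM, Nlrp5 stood at 0.222, 0.455, 0.726 and 0.762 RPKM. The share of all genes split in this way was not computed. In the spermatid gate Nlrp5 was at 3.70 to 5.47 RPKM in the 3 libraries with high Prm1 and at 0.113 and 0.693 RPKM in the other 2. Over all 27 libraries, the 10 with Prm1 at 100 RPKM or more held 1.05 to 5.47 RPKM of Nlrp5 (median 3.37) and the other 17 held 0.113 to 1.49 (median 0.550). These libraries share mice and gates, so the split is a description, and the line of 100 RPKM was drawn after the values were seen. The library just under it, the spermatogonia of mouse 178 with Prm1 at 92.9 RPKM, held 0.282 RPKM of Nlrp5. The 3 genes closest to Nlrp5 over the 27 libraries were Wdr38 (Pearson r = 0.91), Gm16555 (0.90) and 9130204K15Rik (0.90).

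**Figure D4:**
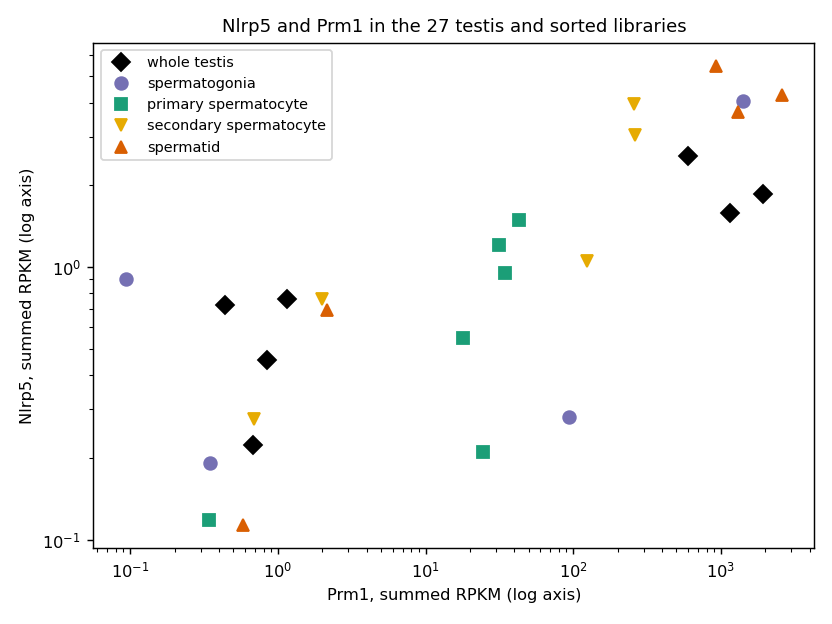
Nlrp5 against Prm1, both as summed RPKM on log axes, in the 27 testis and sorted libraries, with the symbol and colour giving the cell type. The libraries with Prm1 above 100 RPKM hold 1.05 to 5.47 RPKM of Nlrp5, among them 1 labelled spermatogonia.

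Gdf9 followed other genes than Nlrp5, with Toporsl, Cdkl1 and Prss21 closest to it (r = 0.92 each over the same 27 libraries, among 22744 genes). Zp3 was closest to Dsel (0.88), Cd47 (0.87) and Sertad4 (0.86), Nobox to Abr (0.83), Gm26678 (0.83) and Galnt6os (0.82), and Figla to Nr2f6 (0.83), Zfp566 (0.82) and Rcan3 (0.82). For Zp1 no gene exceeded 0.72 (Gm13544). Several libraries come from the same mouse and are not independent, so these coefficients order the genes and are not tests.

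The study compared knockout and wildtype males, and no tested oocyte factor passed the threshold between them. In the sorted cells, with the 4 stages averaged, 0 of 6 tested genes passed an adjusted p of 0.05 in limma, beside 2 of 22715 genes (0.0088%), and 0 of 6 an unadjusted one, beside 1763 genes. The largest difference was that of Nlrp5, 1.08 higher in knockouts on the log2 scale (SE 0.69, adjusted p = 0.678). Its sign turned to -0.25 once the set of libraries quantified together was a term of the fit. Zp3 (-0.59, SE 0.41) and Gdf9 (-0.58, SE 0.41) were next, with adjusted p of 0.697 and 0.701.

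In whole testes 0 of 6 oocyte factors and 0 of 22763 genes passed the adjusted threshold in limma (0%), while 2492 genes and none of the 6 had an unadjusted p under 0.05. Figla was 0.77 higher in knockouts (SE 0.54, adjusted p = 0.678) and Gdf9 was -0.21 (SE 0.56). The 2 wildtype testes, 8.25 and 34.8 RPKM of Gdf9, enclosed all 5 knockouts. Without the testis of mouse 648, the only one outside the set that holds the other 6, the Gdf9 difference was 0.83 and that of Nlrp5 -1.33. The wildtype side is then the testis of mouse 178 alone, so these are differences from 1 library, assumed to vary like the knockouts. The age of each testis is not in the labels and was no term of the fit.

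The partners of these genes are given from lists chosen by function. Among 8 genes of the subcortical maternal complex and its partners, 7 were highest in the ovary, beside 24.3% of all genes, and 2 of them by at least 10-fold (2.39%), Padi6 (65.1 RPKM, 25.1-fold), an oocyte peptidylarginine deiminase, and Khdc3 (18.7 RPKM, 14.8-fold). Zbed3 was the exception, at 18.1 RPKM in the ovary and 19.8 in its highest sorted library. In the sorted cells Tle6 was lower in spermatids than in spermatogonia (-3.18, SE 0.64, adjusted p = 0.00127) and Khdc3 was higher (1.98, SE 0.70, adjusted p = 0.0322), and neither Padi6 (1.39, adjusted p = 0.258) nor Nlrp5 passed. Without mouse 648, Khdc3 was no longer called.

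Of 8 transcription regulators of the oocyte, Nobox and Figla included, 3 were higher in the ovary than in every other library, beside 24.3% of all genes, and 0 by 10-fold. Sohlh2 stood at 0.048 RPKM in the ovary and up to 24.8 RPKM in sorted cells, and Lhx8 at 0.578 and up to 6.91 RPKM. Of 7 tested in sorted cells, 7 were lower in spermatids than in spermatogonia (median -3.51), beside 26.3% of all genes (median -0.29), among them Tcf3, the E-protein partner of FIGLA (-5.81, SE 0.72, adjusted p = 6.38e-05), and Sohlh2 (-3.95, SE 0.52, adjusted p = 8.06e-05). Without mouse 648 this was 5 of 7 (median -3.49) beside 17.3% of all genes.

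The receptors and SMAD proteins that carry the GDF9 and BMP15 signal had RNA in both gonads. Bmpr1b, a type I receptor, was 65.1-fold higher in the ovary (264 RPKM) than in any other library. The other 7 did not reach 10-fold, with the type II receptor Bmpr2 at 84.3 RPKM in the ovary and 0.096 to 13.1 RPKM in sorted cells. In sorted cells 8 of 8 were lower in spermatids than in spermatogonia (median -2.55), beside 26.3% of all genes (median -0.29), among them Bmpr2 (-3.88, SE 0.66, adjusted p = 0.000432), against the direction of Gdf9. Without mouse 648 it was 6 of 8 (median -2.80) beside 17.3% of all genes, and under quantile normalization 7 of 8.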

How the data were processed

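Reads were aligned by the authors with TopHat2, and the deposited values are RPKM for 94480 Ensembl transcripts in 28 libraries. How reads shared by similar genes or transcripts were treated is not given in the sources used here. Transcripts were assigned to genes with GENCODE M21 (GRCm38), which matched 90339 (95.6%), and summed per gene, with a missing value counted as 0. The pattern of missing values splits the libraries into 4 sets taken as quantified together (14, 7, 6 and 1 libraries). Depth was estimated where RPKM times length fell on whole reads (93.1 to 94.6% of low values in 27 libraries, within 0.06 of a read, against 12% by chance), and reads are RPKM times length times that depth. The RPKM values are not counts, so no count model was fitted.

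Stage and genotype were tested with limma 3.58.1 (lmFit, eBayes with trend) in R 4.3.3 on log2(RPKM + 0.1), with Benjamini-Hochberg adjustment over the genes whose mean in the fit reached 0.1 RPKM. A fold on this scale understates the change of low genes. The sorted fit holds 8 groups of genotype by stage, and the testis fit 2 groups. The mouse is the replicate, and the libraries of a group come from different mice. The main sorted fit has no mouse term and treats its 20 libraries as independent. Its p-values, those for genotype included, therefore do not account for several libraries coming from the same mouse. Limits from read numbers cover counting error only. Libraries of the same mouse had residuals correlated at a median of 0.45 (22 pairs, -0.11 to 0.67), against -0.05 (151 pairs) for different mice and groups, and the pairing comes from the mouse numbers in the titles. The fit with mouse as a random block changed 2 calls of an oocyte factor, both of Figla. The steps were tested on simulated data with 200 changed genes (3 log2 units, SD 0.5): 100% were recovered in each of the 3 fits, of 22715 genes for stage and for genotype in sorted cells and 22763 in testis. The false share of the calls was 4.76%, 9.91% and 3.38%. The simulated noise was independent between libraries, with no correlation within a mouse. The simulation checks the steps and does not give the power for smaller or more variable differences.

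Genes named are the 9 oocyte factors, the lists by function and cell type, and the 3 genes with the highest Pearson correlation of log2(RPKM + 0.1) to each factor over 27 libraries, where gene and factor average 0.1 RPKM or more. The 10 genes with the largest ovary excess are also named. The oocyte factors and lists were chosen with earlier results of these data known. Alternatives were pseudocounts of 0.01 and 1 RPKM, no filter, quantile normalization, the longest transcript, the transcripts with values in all libraries, a mouse block, the set as a batch term, and leaving out libraries or mice. Tables and figures used Python 3.11.15, pandas 2.3.3, numpy 2.4.6 and matplotlib 3.10.9. PEER and PoissonSeq, which the study names, were not run.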

Additional observations from a re-analysis of the deposited data

Results flagged for a closer look

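In groups of 4 or 5 libraries, a value was marked where its gap to the nearest other value took up more than Dixon's 95% critical share of the range of the group. Chance marks about 1 in 20 groups of continuous values, and 3 of the 16 pairs of gene and group were marked. A group with a single value above 0 is always marked, however small that value, as in the Oosp1 groups below. The 3 marks can therefore not be set against the rate of 1 in 20. Gdf9 in the testis of knockout mouse 308 stood at 11.3 RPKM, below the 15.0 to 16.3 RPKM of the other 4 knockout testes. Oosp1 stood at 0.024 RPKM in the testis of knockout mouse 214, which is 1 read, and at 0 in the other 4. It stood at 0.083 RPKM in the primary spermatocytes of knockout mouse 614, again 1 read on any one transcript, and at 0 in the other 3 of that group.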

How the results depend on the processing

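Values of 42 results were recomputed under 16 alternatives besides leaving out single libraries, and 266 of 321 were scored as the same. For a tested difference this meant the same direction and side of the threshold. For a count it meant an equal value or one within 1.5-fold of the main count. For an ovary ratio it meant the same sign and a shift under the SD of the testes. Genes called for stage numbered 10268, and 4887 without mouse 648 (7663 to 12676 leaving out 1 library). Genes called for genotype in sorted cells numbered 2. They were 1 with a pseudocount of 1 RPKM, 6 without the filter, 30 with the set as a batch term, 0 without mouse 648 and 1 without the spermatogonia of mouse 544, and 1 to 387 leaving out 1 library, the highest without the spermatogonia of mouse 286. With the replicate block by mouse 0 were called for genotype and 14139 for stage, and the calls of oocyte factors changed in 2 contrasts of Figla, secondary spermatocytes over spermatogonia and spermatids over primary spermatocytes. In whole testis 0 genes were called, 1 with a pseudocount of 0.01 RPKM and 159 without mouse 648 (0 to 159 leaving out 1 library), where the wildtype side is 1 testis and the 159 are differences from that library. Genes 10-fold higher in the ovary numbered 838, 488 with a pseudocount of 1 RPKM and 2488 against the libraries of the ovary's set alone, the last chosen after seeing the data, as were the other choices of libraries for the ovary and for the count of genes read. Genes read in sorted cells numbered 8, and 5 at 30 reads. Signs turned only in differences that had not passed a test. Zp1 in spermatids over spermatogonia went from 0.14 to -0.39 without mouse 648 (-0.13 to 0.42 leaving out 1 library). Nobox by genotype in sorted cells was 0.00, and -0.06 (pseudocount of 1 RPKM), -0.19 (quantile normalization), -0.04 (mouse block) and -0.20 to 0.21 leaving out 1 library. Zp1 by genotype ran from -0.36 to 0.06, and Nlrp5 was -0.25 with the set as a term. In testis Gdf9 was 0.05 on the longest transcript and 0.83 without mouse 648 (-1.24 to 0.83). Nlrp5 in testis was -0.06 with a pseudocount of 1 RPKM, -0.36 under quantile normalization and -1.33 without mouse 648 (-1.33 to 1.71). The untested ovary ratio turned to 0.24 for Gdf9 and 0.33 for Figla within the ovary's set, and to 0.06 for Gdf9 without mouse 648. The cause of these shifts was not tested. One ovary, 2 wildtype testes and 2 to 6 libraries per gate limit every comparison, and under 10 reads neither presence nor absence was called.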

Other observations

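Of 13 further oocyte and maternal transcripts found in the table, 12 were higher in the ovary than in any other library, beside 24.3% of all genes, and 7 by at least 10-fold, beside 2.39%, among them Bcl2l10 (10.6 RPKM, 56.9-fold), Zar1 (6.71 RPKM, 43.4-fold), Oosp3 (8.46 RPKM, 36.4-fold) and H1foo (50.0 RPKM, 35.3-fold), the linker histone of the oocyte. The exception was Btg4, an adaptor for deadenylation of maternal mRNA, at 6.47 RPKM in the ovary and 0.374 to 9.43 RPKM in sorted cells. Btg4 was 2.44 higher in spermatids than in spermatogonia (SE 0.56, adjusted p = 0.00324 in limma). H1foo (-2.05, adjusted p = 0.0463) and Dppa3 (-2.28, adjusted p = 0.015) were lower. Without mouse 648, 1 of the 6 tested genes of this list was called higher and 0 lower.

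Of the genes that mark germ cells of both sexes, Ddx4, Dazl, Sycp3 and Mael were lower in the whole ovary than in any testis. Kit, at 30.4 RPKM, was not. The share of all genes lower in the ovary than in every testis was not computed. Ddx4, the germ cell RNA helicase, stood at 0.647 RPKM there and at 77 to 347 RPKM in testes, Mael at 0.539 and 116 to 426 RPKM, and Dazl at 1.95 and 4.8 to 45.3 RPKM. The 9 oocyte factors summed to 192 RPKM in the same ovary, a sum that counts a read again for every transcript it was assigned to. The 10 genes with the largest excess in the ovary were Sfrp4, Gm10680, Ephx2, Hsd17b1, Apoa4, Bcat1, Akr1c14, Ltf, Snora74a and Inhba, none of them an oocyte factor, and Zp2 ranked 49 and Oosp1 ranked 64 among 35078 genes. Of the 5 cumulus and granulosa genes that GDF9 is known to induce, Grem1 was 22.3-fold higher in the ovary (13.8 RPKM), while Has2 stood at 0.152, Ptx3 at 0.154, Ptgs2 at 0.366 and Tnfaip6 at 0.908 RPKM there.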
